A study of Homo sapiens with 15 samples.

Results

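The alpha- and beta-globin loci were read in 6 lists of chromatin immunoprecipitation sequencing (ChIP-seq) peaks from TF-1, a human erythroleukemia cell line. The members are the peaks whose summit, the base of highest read pileup, lay in a 110 kb window on chromosome 11 (5220000 to 5330000) or a 130 kb window on chromosome 16 (120000 to 250000) of genome build hg19. The first window holds the beta-globin genes HBB, HBD, HBG1, HBG2 and HBE1 with their locus control region, and the second the alpha-globin genes HBZ, HBA2 and HBA1 with their upstream enhancers. Of 198298 peaks in all lists, 71 were members, 50 in the beta window and 21 in the alpha window. Peaks of different lists that overlapped were joined into 31 places, 20 beta and 11 alpha.

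Both groups of cells carried a doxycycline-inducible vector, for wild-type RAD21 (WT) in one and for RAD21 with the premature stop Q592* in the other, and both were induced for 6 days. RAD21 and SMC3 are subunits of cohesin, and the series asked how GATA2, RUNX1 and SMC3 occupy chromatin in the presence of each form. The labels name 2 ChIP libraries for every pair of target and form other than RUNX1 in Q592*, which has 1, and 4 input libraries, 15 samples in all. Chromatin had been fixed with formaldehyde at 1% during 10 minutes. No uninduced or empty-vector sample was analysed here. Peak lists give no RNA level, so the cell type label could not be checked against marker genes.

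Globin genes are switched during development: HBE1 and HBZ are embryonic, HBG1 and HBG2 fetal, and HBB, HBD (the minor adult gene), HBA1 and HBA2 adult. Their transcription in erythroid cells depends on distant enhancers. At the beta locus these are the DNase hypersensitive sites HS1 to HS4 of the locus control region (LCR), upstream of HBE1. HS5 at its far end and 3′HS1 beyond HBB are known for binding the insulator protein CTCF, at which cohesin halts. At the alpha locus the elements R1 to R4 lie upstream of HBZ, R1 to R3 inside introns of the neighbouring gene NPRL3, and R2 is known as the strongest. GATA2 binds GATA motifs in blood progenitors and is replaced by GATA1 as erythroid cells mature. RUNX1 is a transcription factor of blood progenitors, and cohesin is the ring complex that extrudes and holds chromatin loops.

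Of the 8 globin genes named above, HBD was the one with a summit within 1000 bp of its start in any list, and its promoter is therefore shown. The sequence gives the 250 bases before the start of HBD, from RefSeq on GRCh38.p14, chr11:5234484-5234733, minus strand. Capitals mark a RUNX hexamer and a GATA hexamer.
HBD upstream: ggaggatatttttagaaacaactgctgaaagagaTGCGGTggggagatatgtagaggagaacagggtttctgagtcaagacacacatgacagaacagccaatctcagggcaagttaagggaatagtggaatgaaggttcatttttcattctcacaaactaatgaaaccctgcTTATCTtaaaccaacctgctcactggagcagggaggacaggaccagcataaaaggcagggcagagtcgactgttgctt
The RUNX hexamer TGCGGT occupies the bases 216 to 211 before the start, and TTATCT, which reads AGATAA on the other strand, the bases 78 to 73. The GATA hexamers searched for were AGATAA, then TGATAA, then AGATAG, and last TGATAG. For RUNX the search used TGTGGT as well as TGCGGT. Both strands were read, and the matches do not overlap. Over 35116 promoters of this length 22.3% held a GATA hexamer, 16.3% a RUNX hexamer and 3.72% both. The match is by gene start and not by coordinate, since the peaks are on another build. Of the 8 globin genes, HBD alone was matched in the promoter table.

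At the HBD promoter all 3 targets were called in WT and GATA2 alone in Q592*. The place spans 5255642 to 5256134 on chromosome 11 in hg19, and the GATA2 summits lay 134 bp (WT) and 86 bp (Q592*) upstream of the approximate start. That start was not aligned to the RefSeq start of the printed sequence. These distances therefore cannot be set beside the hexamer positions. The values are the ChIP reads stacked at a summit, recovered from the authors' fold and p, and the authors' fold enrichment, the ratio of that pileup to the local background. GATA2 had 73 reads in WT, at fold 9.38, and 148 reads in Q592*, at fold 15.4. RUNX1 was called in WT with 26 reads (fold 3.84), and SMC3 in WT with 25 reads (fold 4.06). The RUNX1 and SMC3 peaks were weak for their lists: their −log10 q (the authors' q value, larger when a peak stands out more) of 4.63 and 5.41 compare with list medians of 11.1 and 18.2. The remaining genes HBB, HBG1, HBG2, HBE1, HBZ, HBA2 and HBA1 had no summit within 1000 bp of their starts in any of the 6 lists. HBG1 and HBG2, and HBA1 and HBA2, are near-identical copies, and the treatment of reads that match both copies is not given in the sources used here. Start sites and elements follow an approximate hg19 layout from general knowledge.

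**Figure D1:**
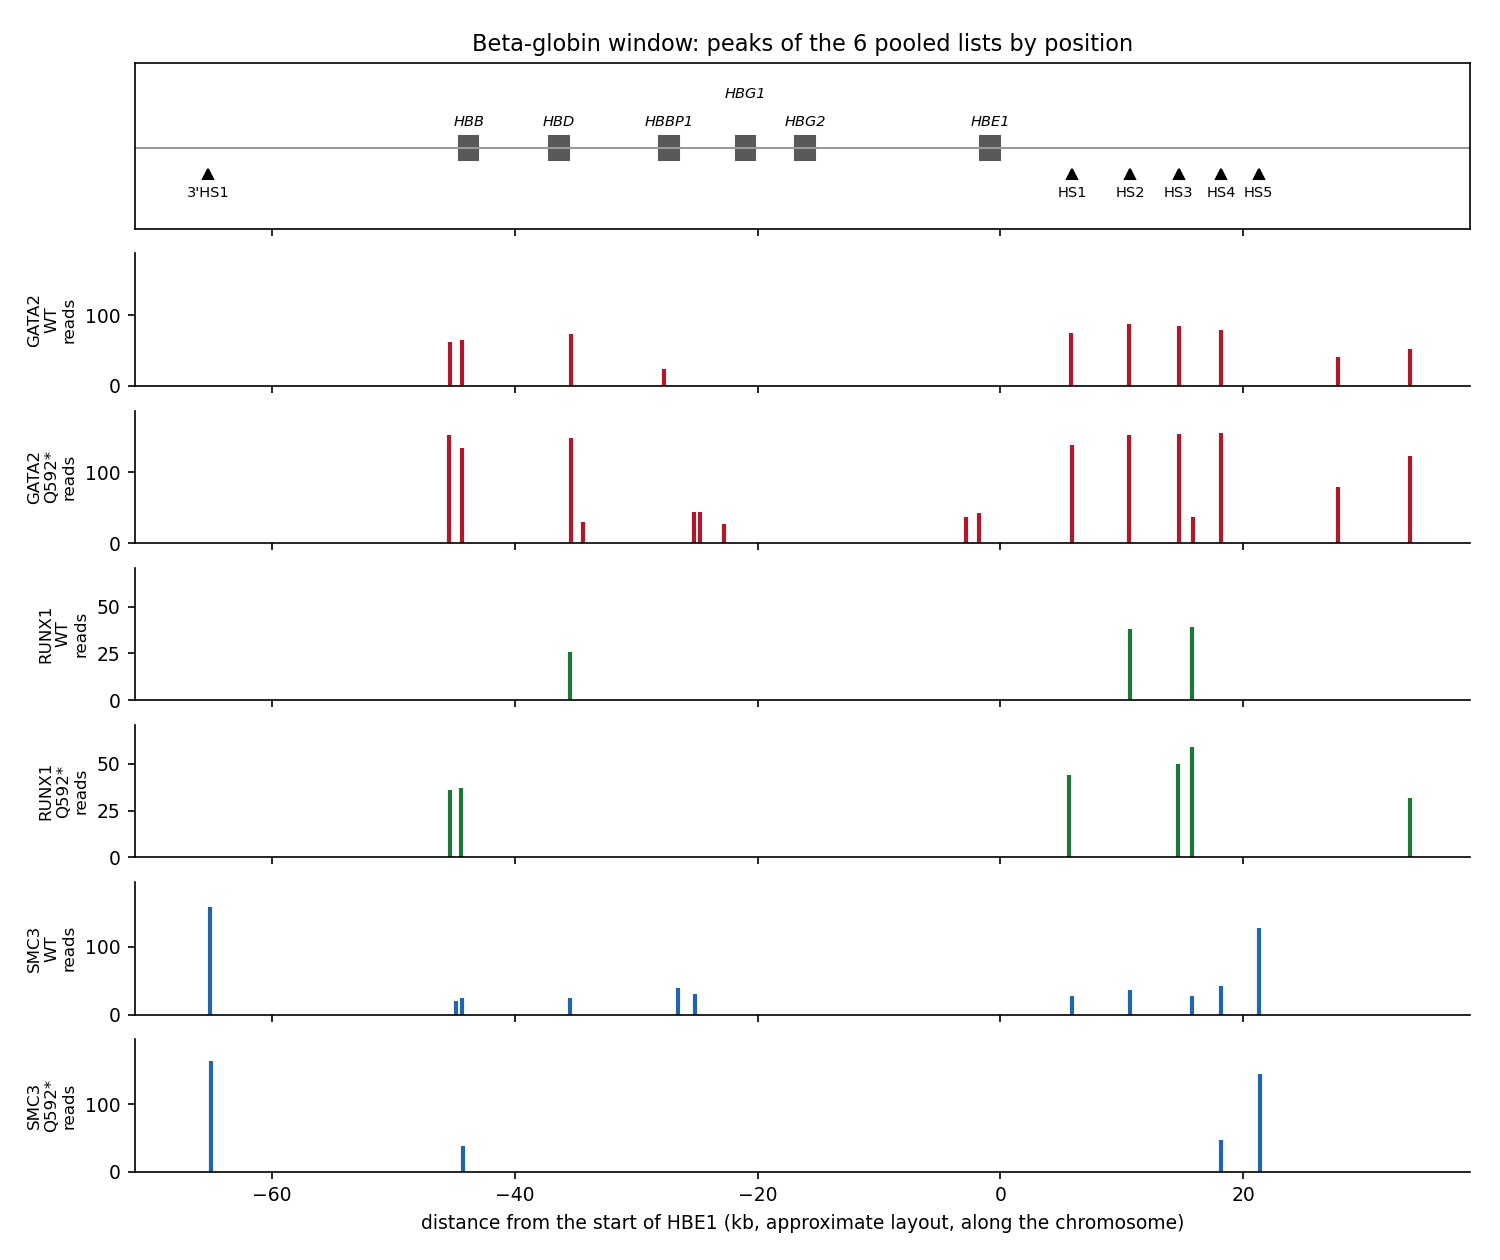
Peaks of the beta-globin window by distance from the start of HBE1 in kb (horizontal axis, approximate layout), with 1 row per target and line. The height of each bar is the number of ChIP reads at the summit, on 1 scale per target; GATA2 bars stand at HS1 to HS4 in both lines, and the tallest SMC3 bars at 3′HS1 (159 and 163 reads) and HS5 (128 and 145 reads).

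In the beta LCR, GATA2 occupied HS1, HS2, HS3 and HS4 in both lines with summits at most 69 bp from the approximate centres. At HS1 its pileup was 75 reads in WT and 138 in Q592*. At HS2 it was 87 and 152 reads, and at HS3 85 and 154. HS4 had 79 and 156 reads. The pileup at the 4 sites thus ranged from 75 to 87 reads in WT and from 138 to 156 in Q592*. Over the genome 98.54% of the 33241 GATA2 regions called in both lines were higher in Q592* after scaling to pool size. Their median log2 ratio of Q592* over WT was 0.81, and the 4 sites had 0.83 to 1.00. At HS5 and at 3′HS1 GATA2 and RUNX1 were called in neither line.

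The tallest SMC3 peaks of the beta window stood at its border elements in both lines. At 3′HS1 (5225859 to 5226455) it had 159 reads in WT, at fold 26.6, and 163 in Q592*, at fold 25.2. At HS5 (5312220 to 5312934) it had 128 reads in WT, at fold 21.2, and 145 in Q592*, at fold 14.2. The lower fold at HS5 in Q592* stood beside a higher local background there, 1.72 times the genome-wide value against 1.01 in WT, while its reads were not lower. Between these borders every SMC3 peak was weaker: 20 to 42 reads in the 9 of WT, and 38 and 47 reads in the 2 of Q592*, which lay inside HBB and at HS4. SMC3 was called at HS1 (28 reads) and HS2 (37 reads) in WT alone, and at HS4 in both lines (42 and 47 reads). HS4 was the one element of the 10 with GATA2 and SMC3 both in both lines.

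RUNX1 had few peaks at the beta enhancers, and its sites there were mostly called in 1 line. Its lists were short, with 9603 peaks in WT and 15582 in Q592*, against 38962 and 59009 for GATA2. The share of the list that lay in both windows was 0.042% and 0.051% for RUNX1, and 0.031% and 0.034% for GATA2. Over the genome 46.0% of RUNX1 regions were called in both lines, and in the globin loci 2 of 10. The 8 called in 1 line only were all below the median −log10 q of their list (5.67 to 13.45 in Q592*, median 14.3, and 4.63 and 5.30 in WT, median 11.1). In WT it was called at HS2 (38 reads, fold 3.24), and in Q592* at HS1 (44 reads, fold 3.31) and HS3 (50 reads, fold 5.35). The 1 beta place with RUNX1 in both lines lay beyond HS3 (5306993 to 5307287), 1120 to 1132 bp from its centre, with 39 reads in WT and 59 in Q592*. Their folds were 5.30 and 4.90. GATA2 was called at that place in Q592* alone, with 37 reads, and SMC3 in WT alone, with 27 reads. The labels give 1 RUNX1 library for Q592* and 2 for WT. Pool sizes estimated with an assumed genome size and fragment length were 106.7 and 104.8 M reads, where M is 1000000. Any part of the library number in these differences was not tested.

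Inside the beta gene part, from HBB to the start of HBE1, GATA2 had 4 peaks in WT and 9 in Q592*. The whole GATA2 list was 1.51 times as long in Q592* as in WT. In this part 3 GATA2 regions were called in both lines and carried the high pileups. They were the HBD promoter, a region inside HBB and a region beyond its 3′ end, a stretch known as an erythroid enhancer. Beyond the 3′ end of HBB (5245723 to 5246555) GATA2 had 62 reads in WT and 153 in Q592*. Inside HBB (5246729 to 5247153) it had 65 and 134 reads. RUNX1 was called at both of these HBB regions in Q592* alone, with 36 and 37 reads, and SMC3 at both in WT, with 20 and 24 reads. In Q592* SMC3 was called inside HBB, with 38 reads, and not beyond its 3′ end. A pair of further SMC3 peaks of the gene part were in WT alone, inside HBBP1 near its start (5264663 to 5264860, 39 reads) and upstream of it (5265848 to 5266295, 30 reads).

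Another 6 GATA2 regions of the beta gene part were called in Q592* alone, as were 40.1% of all GATA2 regions, and all 6 were weak. They had 27 to 44 reads and a −log10 q of 2.19 to 11.7, below the Q592* list median of 15.2. One lay upstream of HBD (5256817 to 5257026, 29 reads), and a run of 3 lay between the pseudogene HBBP1 and HBG1. These 3 started at 5265913 (44 reads), 5266326 (44 reads) and 5268444 (27 reads). The last 2 lay at the 3′ end of HBE1 (5289417 to 5289672, 42 reads) and beyond it (5288417 to 5288613, 37 reads). In WT a single GATA2 region of its own stood inside HBBP1 (5263470 to 5263664, 24 reads, −log10 q 3.40). The fewest reads with which any GATA2 peak was called at the genome-wide background were 19 in WT and 22 in Q592*, so pileups just under these counts would not be listed.

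Upstream of HS5, outside the named elements, GATA2 was called in both lines at 2 regions. At 5318939 to 5319257 it had 41 reads in WT and 79 in Q592*. At 5324657 to 5325280 it had 52 reads in WT, at fold 7.48, and 123 in Q592*, at fold 16.5. The far one also carried RUNX1 in Q592* (32 reads, fold 4.75). SMC3 was not called at either.

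**Figure D2:**
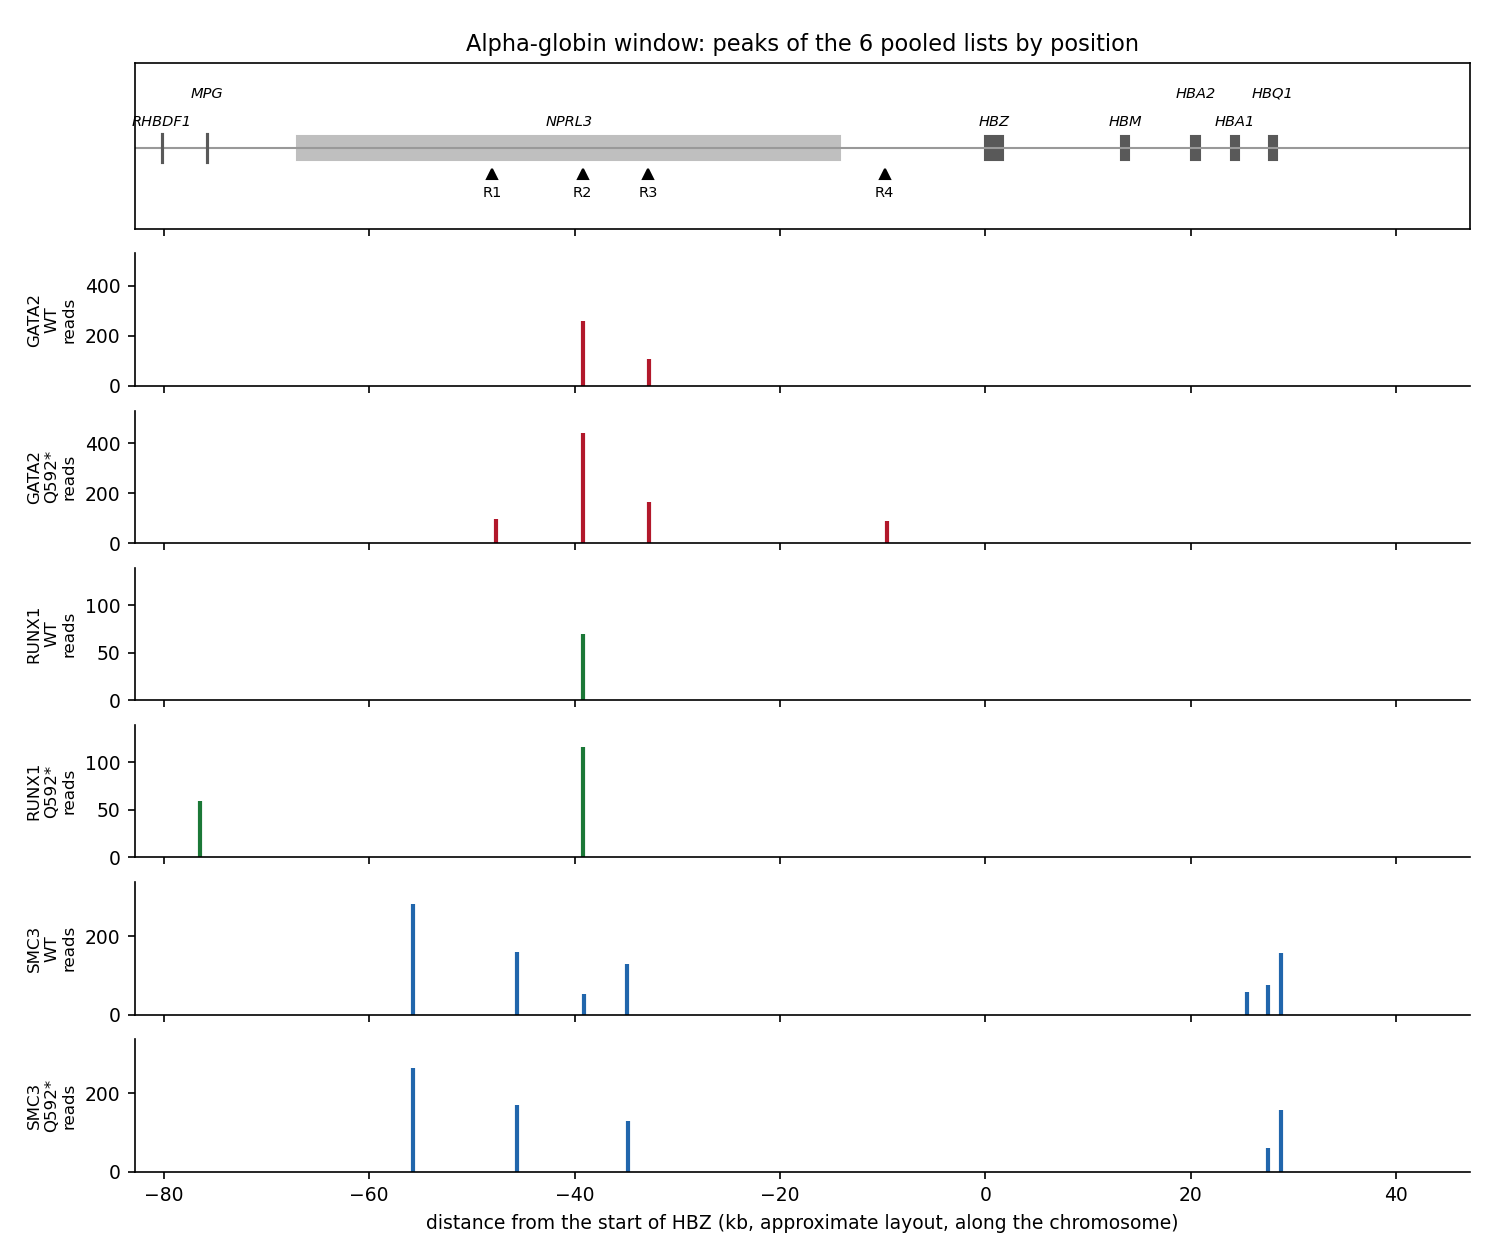
Peaks of the alpha-globin window by distance from the start of HBZ in kb (horizontal axis, approximate layout), with bars as the number of ChIP reads at the summit. GATA2 and RUNX1 bars stop before HBZ, with the tallest at R2 (259 and 442 GATA2 reads), while SMC3 bars also stand at and beyond HBQ1.

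At the alpha locus GATA2 was called at the upstream enhancers and not in the gene part of either line. R2 held the strongest GATA2 peak of both windows (163346 to 163920 on chromosome 16). It had 259 reads in WT, at fold 7.68 and −log10 q 117, and 442 reads in Q592*, at fold 19.2 and −log10 q 289. By −log10 q it ranked 1285 of 38962 peaks in WT and 877 of 59009 in Q592*. At R3 GATA2 had 108 reads in WT and 163 in Q592*. R1 and R4 were called for GATA2 in Q592* alone, with 98 reads (fold 4.06) and 90 reads (fold 5.02). With these the Q592* list had GATA2 at all 4 alpha elements and the WT list at 2. Over the genome 40.1% of GATA2 regions were called in Q592* only.

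The absence of R1 and R4 from the WT GATA2 list is bounded by what that list could call. Among its peaks at a local background like that of R2 and R3 (3.80 to 5.48 times the genome-wide value), the fewest reads were 47. R2 was also the alpha element with the other targets. RUNX1 had 70 reads there in WT, at fold 2.18, and 116 in Q592*, at fold 5.36. SMC3 was called at R2 in WT alone, with 52 reads (fold 2.23). The 1 other RUNX1 peak of the alpha window lay upstream of MPG, a DNA repair gene, in Q592* alone (126260 to 126446, 59 reads, fold 3.95).

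SMC3 at the alpha locus lay mostly inside NPRL3, away from R1 to R3, and at the far end of the gene cluster. Inside NPRL3 it was called in both lines at 3 regions away from R1 to R3. The strongest (146824 to 147273) had 282 reads in WT and 264 in Q592*. The region past R1 (157041 to 157450) had 159 and 171 reads, and the one before R3 (167800 to 168188) had 130 and 129. None of the 3 carried a GATA2 or RUNX1 peak. In the gene part SMC3 was called in both lines at the start of the theta-globin gene HBQ1 (76 and 61 reads) and beyond its 3′ end (231426 to 231876, 158 and 157 reads). A further region beyond the 3′ end of HBA1 was called in WT alone (228225 to 228484, 58 reads, −log10 q 3.82).

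**Figure D3:**
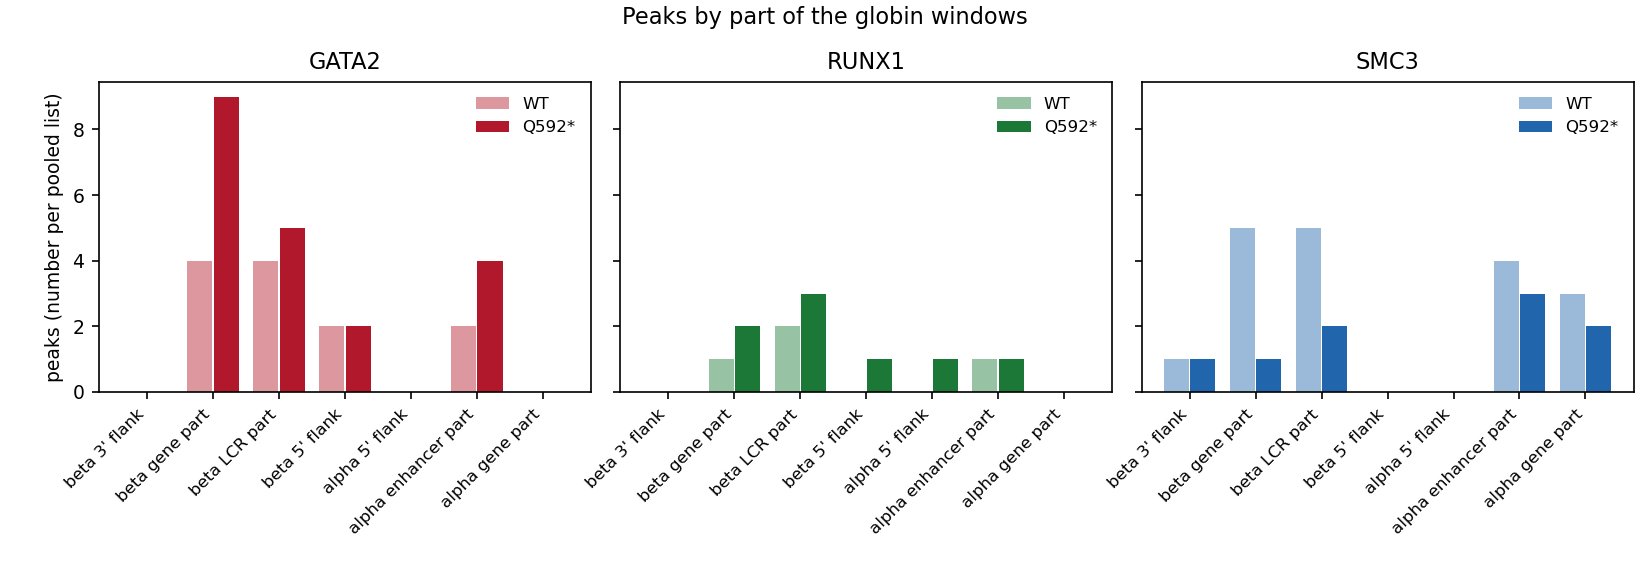
Number of peaks per pooled list in each part of the 2 windows, with WT in the pale and Q592* in the dark bar of each pair. GATA2 counts are higher in Q592* in the beta gene part (9 against 4) and SMC3 counts lower there (1 against 5). In the beta LCR part the GATA2 counts are 5 against 4. Over the whole lists the Q592* to WT ratios were 1.51 for GATA2 and 0.77 for SMC3.

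Counted over both windows, GATA2 had 12 peaks in WT and 20 in Q592*, RUNX1 4 and 8, and SMC3 18 and 9. The Q592* to WT ratios were 1.67, 2.0 and 0.5, and over the whole lists they were 1.51, 1.62 and 0.77. With the lists of a target trimmed to equal length GATA2 had 12 peaks in WT and 16 in Q592*, RUNX1 had 4 and 3, and SMC3 had 8 and 9, so the directions of RUNX1 and SMC3 turned. In the LCR part the GATA2 counts were 4 and 5, the RUNX1 counts 2 and 3, and the SMC3 counts 5 and 2. In the beta gene part they were 4 and 9, 1 and 2, and 5 and 1. The alpha enhancer part had 2 and 4 GATA2, 1 and 1 RUNX1 and 4 and 3 SMC3 peaks, and the alpha gene part SMC3 alone, with 3 and 2. With 1 pooled list per target and line there is no spread between replicates, so the lines could not be tested against each other and the differences describe these pools.

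Set against the whole genome, the split of GATA2 regions was close to the background. Of 21 GATA2 regions of the globin loci 9 were called in Q592* only, where 40.1% of all GATA2 regions were, and 1 in WT only, against 7.96%. Of 10 RUNX1 regions 6 were called in Q592* only (44.4% of all RUNX1 regions) and 2 in WT only (9.59%), and with equal lengths 1 and 2. Of 18 SMC3 regions 9 were called in WT only (27.6% of all SMC3 regions) and none in Q592* only (6.84%). These WT-only SMC3 regions were at the weak end of their list: they had 20 to 58 reads and a −log10 q of 2.98 to 9.76, all below the WT list median of 18.2. With a −log10 q of at least 10 required in both lists, no WT-only SMC3 region was left and 3 Q592*-only regions appeared. These 3 (inside HBB, at HS4 and at the start of HBQ1) had WT peaks too. Their WT −log10 q of 6.01, 3.70 and 9.03 fell below the cut. List medians for SMC3 were 18.2 in WT and 24.7 in Q592*, so 1 cut is not alike for both. The direction of the SMC3 difference thus rests on peaks with a −log10 q below 10. With the same cut the Q592*-only regions fell from 9 to 5 for GATA2 and from 6 to 3 for RUNX1, with none in WT only. The 3 for RUNX1 include R2, which had a WT peak too, at a −log10 q of 4.08 and so below the cut.

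The 9 SMC3 regions missing from the Q592* list lay mostly where GATA2 was called. A GATA2 peak of either line overlapped 7 of them, against 52.1% of all WT-only SMC3 regions. Of the 9 SMC3 regions called in both lines 2 overlapped GATA2, against 20.8% of all shared SMC3 regions. Of the 7, HS1, HS2, the HBD promoter and R2 had an overlapping GATA2 peak in both lines. The place beyond HS3, the stretch upstream of HBBP1 (5265848 to 5266295) and the region beyond the 3′ end of HBB had one in Q592* alone. Beyond HBB the SMC3 peak touched the Q592* GATA2 peak and its summit lay 566 bp from that of GATA2. The other 2 of the 9 were inside HBBP1 and beyond HBA1. The share of all WT-only SMC3 regions that overlapped GATA2 of WT was not computed.

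Co-occupancy was also counted within each line. RUNX1 peaks overlapped GATA2 at 3 of 4 in WT (75% over the whole list) and 7 of 8 in Q592* (74.9%). GATA2 peaks overlapped SMC3 at 6 of 12 in WT (26.3%) and 2 of 20 in Q592* (11.7%). SMC3 peaks overlapped GATA2 at 6 of 18 in WT (24.9%) and 2 of 9 in Q592* (21.2%). GATA2 peaks overlapped RUNX1 at 3 of 12 in WT (18.3%) and 7 of 20 in Q592* (19.5%). RUNX1 peaks overlapped SMC3 at 4 of 4 in WT (49.2%) and 1 of 8 in Q592* (25.1%). The SMC3 peaks at these 4 WT overlaps were weak, with a −log10 q of 3.69 to 6.63. Requiring a −log10 q of 10 or more of both partners left no WT GATA2 peak that overlapped SMC3 and no WT RUNX1 peak that overlapped GATA2. In Q592* that cut left 2 GATA2 peaks that overlapped SMC3 and 2 RUNX1 peaks that overlapped GATA2. The direction of the GATA2 and SMC3 overlap between the lines thus turned. With lists of equal length it turned as well (0 in WT and 2 in Q592*). Where peaks of different targets in the same line overlapped each other, the median distance between their summits was 37 bp (15 to 247) over 10 GATA2 and RUNX1 pairs. Over 8 GATA2 and SMC3 pairs it was 60.5 bp (13 to 105).

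**Figure D4:**
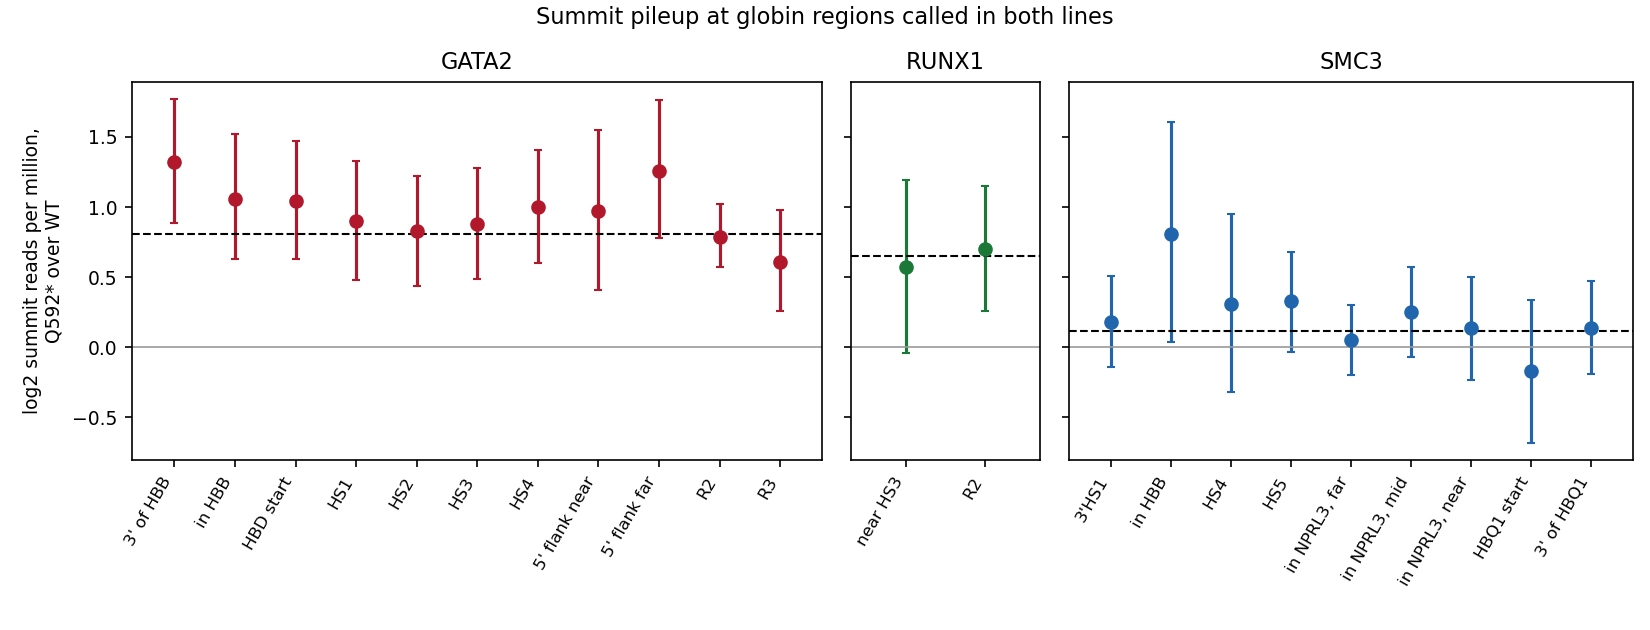
Log2 ratio of summit reads per M, Q592* over WT, at the globin regions called in both lines, with exact 95% binomial intervals that cover counting error only; the dashed line is the median over all shared regions of the target. All 11 GATA2 intervals lie above 0, and 8 of the 9 SMC3 intervals include 0.

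At regions called in both lines the GATA2 pileup per M reads of the pool was higher in Q592* at all 11, with a median log2 ratio of 0.97. This is to be read against a genome-wide shift: the median over 33241 shared GATA2 regions was 0.81, and 98.54% of them were higher in Q592*. The largest ratio was beyond the 3′ end of HBB, 0.58 reads per M in WT and 1.44 in Q592*, a log2 ratio of 1.32 (95% interval 0.89 to 1.77). Among the genes it was 1.04 (0.63 to 1.47) at the HBD promoter and 1.06 (0.63 to 1.52) inside HBB. The LCR sites ranged from 0.83 (0.44 to 1.22) at HS2 to 1.00 (0.60 to 1.41) at HS4. The alpha elements had 0.79 (0.57 to 1.02) at R2 and 0.61 (0.26 to 0.98) at R3. With the local background subtracted R2 was at 0.91 and R3 at 0.80, and HS2 was lowest of the 11 at 0.74. Without that subtraction the interval beyond HBB was the only one of the 11 that lay wholly above the genome-wide median, and none lay below it. The ratio beyond HBB was at percentile 94.26 of all shared GATA2 regions, and at 90.65 with the local background subtracted. The share of all shared regions with an interval wholly above the median was not computed.

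RUNX1 had 2 regions called in both lines and SMC3 had 9. RUNX1 was 0.57 (−0.04 to 1.19) at the place beyond HS3 and 0.70 (0.26 to 1.15) at R2, beside a genome-wide median of 0.65 over 7917 regions. With the local background subtracted R2 was at 1.28, beside a genome-wide median of 0.72, and the place beyond HS3 at 0.53. SMC3 had a median of 0.18 over 9 regions, beside 0.12 over 29578. At 3′HS1 its ratio was 0.18 (−0.14 to 0.51), at HS5 0.33 (−0.03 to 0.68) and at the strongest NPRL3 region 0.05 (−0.20 to 0.30). Its highest value was 0.81 (0.04 to 1.61) inside HBB, from 24 and 38 reads. The lowest was −0.17 (−0.68 to 0.34) at the start of HBQ1. The sign of the SMC3 ratios depended on the scaling: 8 of 9 were above 0 per M reads of the pool, 5 of 9 by reads without scaling and 3 of 9 when scaled to the genome-wide background. The median over all shared SMC3 regions was 0.12, −0.03 and −0.14 in turn. Per M reads of the pool 67.67% of the 29578 were above 0, and this share was not computed for the other scalings.

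**Figure D5:**
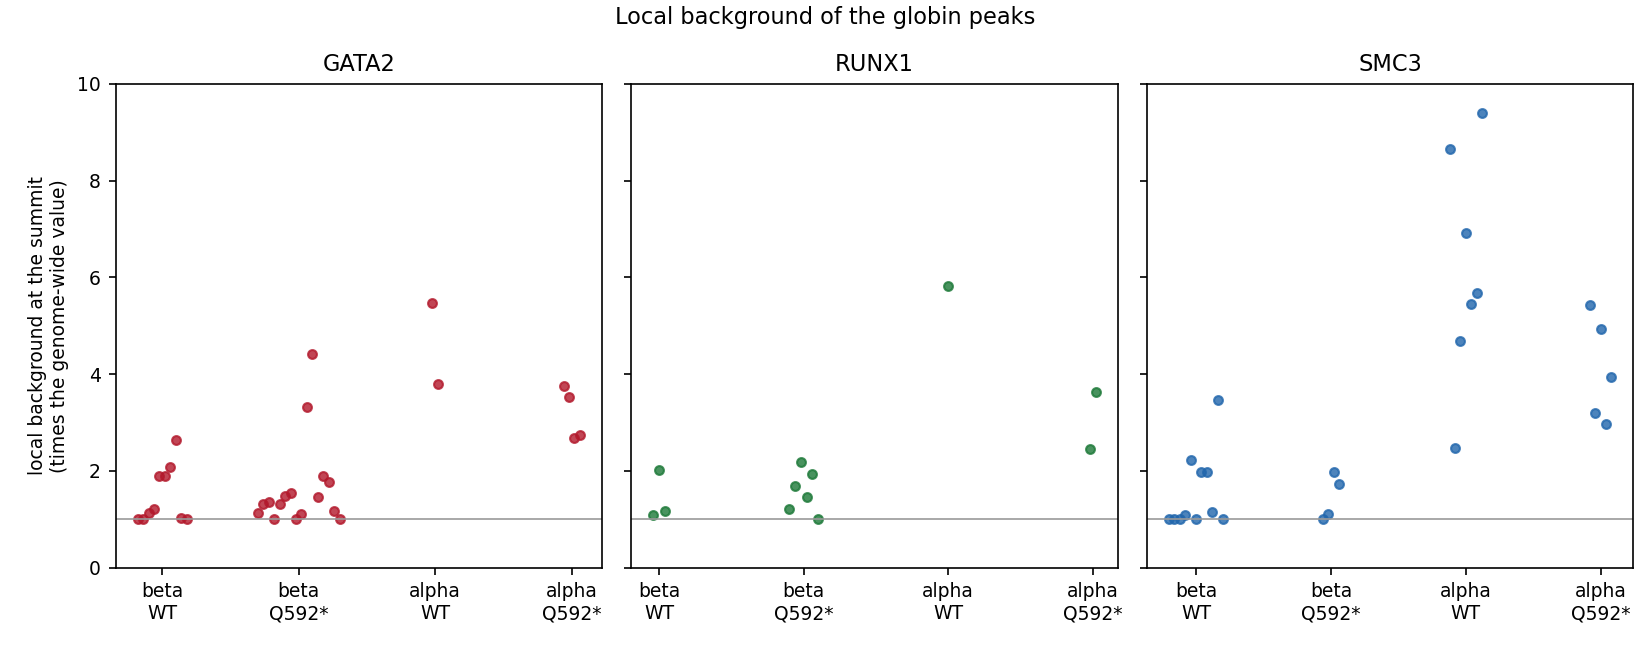
Local background at each globin peak as a multiple of the genome-wide background of its list (vertical axis), by locus and line; 1 point is 1 peak. The 21 alpha points lie between 2.46 and 9.39 and the 50 beta points between 1.00 and 4.41.

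The alpha and beta peaks stood on different backgrounds, which bears on their fold and q values. The local background at the alpha peaks was 2.46 to 9.39 times the genome-wide value (median 3.94), and at the beta peaks 1.00 to 4.41 times (median 1.27). Over whole lists the medians were higher in Q592*. They were 1.51 (GATA2), 1.79 (RUNX1) and 1.98 (SMC3) in WT, and 1.76, 2.32 and 2.22 in Q592*. Within the alpha locus the local background was higher in WT at 7 of the 8 regions called in both lines. The 8 join the 3 targets and count R2 for both GATA2 and RUNX1, and the same share over the genome was not computed. R2, for example, had 5.48 in WT and 3.53 in Q592* for GATA2, and 5.82 and 3.63 for RUNX1. The region beyond HBQ1 had 9.39 and 3.94 for SMC3, with 158 and 157 reads, so that its fold was 3.42 in WT and 7.23 in Q592* at nearly equal pileup. Its part in the peaks listed in 1 line only, such as GATA2 at R1 and R4, was not tested.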

How the data were processed

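Members, layout and lists were chosen with earlier results of these data known. The 6 deposited peak lists are pooled calls per target and line. Bowtie2, MACS2, Picard and the build hg19 are the tools and genome named, per the submitters' processing notes, without versions or settings. The deposited fold enrichment is the ratio of the ChIP pileup to the local background at the summit, and the deposited −log10 p and −log10 q are for that position too. A score that the authors deposited equals the −log10 q times 10, truncated, and was left aside. Summits were placed by the deposited offset from the peak start. The lowest −log10 q of a list was 2.00 to 2.05.

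Whole ChIP reads at each summit were recovered from fold and p, to within 0.002 of the deposited −log10 p for 100% of peaks. Pool totals (93.4 to 107.5 M reads, background 72.6 to 95.3 M) assume an effective genome of 2700000000 bp and a fragment as long as the narrowest peak. Regions join the peaks of both lines wherever they overlap by 1 bp or more. The 95% Clopper-Pearson intervals cover counting error only. The parts were bounded as follows: beta 3′ flank, genes from HBB to HBE1, LCR and 5′ flank; alpha 5′ flank, enhancers from the 3′ end of NPRL3 to before HBZ, genes from HBZ to HBQ1 and 3′ flank, which held no peak. Named were the 8 globin genes, 7 neighbours and 10 elements. Peaks given in full were the highest by −log10 q per target, line and part, and regions of 1 line. Nearest outside the windows were GATA2 in Q592* 0.4 kb before the beta window (−log10 q 8.5) and SMC3 4.1 kb before the alpha window (136.7 in Q592*, 139.7 in WT), and nearest inside at those edges SMC3 6.2 kb (WT) and RUNX1 6.3 kb (Q592*). The recovery and overlap functions were tested on simulated data (Python 3.11.15, numpy 2.4.6, pandas 2.3.3, scipy 1.17.1, matplotlib 3.10.9).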

Additional observations from a re-analysis of the deposited data

How the results depend on the processing

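No paired analysis was possible because each target and line has 1 pooled list, and for the same reason no library could be left out. Of 189 alternative values 147 stayed within 1.5 times of the main count or within 1 SD (over the globin regions) of the main median ratio, 41 moved and 1 changed sign. Counting any overlap with the window, moving the edges outward by 10 kb, pairing summits within 200 bp and marking elements within 500 bp moved none of the values computed under them. Reads without scaling kept the 3 median ratios within that SD, although fewer SMC3 regions were then higher in Q592* (5 of 9 against 8). With a −log10 q of at least 10, the peaks numbered 1 for WT RUNX1 (1 in enhancer and 0 in gene parts), 4 for Q592* RUNX1 (0 in gene parts) and 6 for WT SMC3 (4 and 1). GATA2 then had 5 regions of Q592* alone and 0 of WT alone, RUNX1 had 1 shared, 3 of Q592* alone and 0 of WT alone, and SMC3 had 3 of Q592* alone and 0 of WT alone. Overlaps with GATA2 fell to 0 (WT RUNX1), 0 (WT SMC3) and 2 (Q592* RUNX1), and those of WT GATA2 with SMC3 to 0. With lists of equal length there were 3 Q592* RUNX1 peaks (0 in gene parts) against 4 in WT, and 8 WT SMC3 peaks (4 in enhancer and 3 in gene parts) against 9 in Q592*. Q592*-only regions were then 5 (GATA2), 1 (RUNX1) and 2 (SMC3), and WT-only SMC3 regions 1. WT GATA2 and SMC3 peaks no longer overlapped (0 and 0), and 2 Q592* RUNX1 peaks overlapped GATA2. A reciprocal overlap of 50% gave 2 WT-only GATA2 and 1 Q592*-only SMC3 regions, and overlaps of 1 (WT RUNX1 with GATA2), 3 (WT GATA2 with SMC3), 3 (WT SMC3 with GATA2) and 3 (Q592* RUNX1 with GATA2). Stricter settings test fewer peaks by construction. Among alternatives chosen after seeing the data, a floor of 40 reads left 1 WT RUNX1, 5 Q592* RUNX1 and 10 WT SMC3 peaks. Subtracting the local background gave a RUNX1 median log2 ratio of 0.91, and scaling to the genome-wide background an SMC3 median of −0.08; the cause was not tested.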
